A study of Mus musculus with 36 samples.

Results

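Forebrain/midbrain (F/M) tissue of 2-month-old Tpp1-/- mice was compared with F/M tissue of control mice of that age, gene by gene. The comparison held 6 of the 36 RNA-seq libraries of the series, chosen by their titles: 3 from Tpp1-/- mice (T1, T2 and T3) and 3 from controls (Co1, Co2 and Co3). Tpp1 is disrupted by gene targeting in the whole animal in this line, which is kept by crossing heterozygotes. The 2-month controls are unaffected wild-type siblings, and all libraries of that age came from males. The line is a model of CLN2 disease, and no Cre driver, transgene or treatment is named in the labels. The 6 cerebellum (Cb) libraries of 2 months were fitted together with these 6 and shared the estimate of the spread between libraries. The effect was also set beside that in Cb and in the 12 F/M libraries of 1 and 3 months, and all 24 libraries of those ages served to sort the genes found. Among these, Co3 of 1 month was Tpp1+/- in F/M and in Cb, and both ages include males and females. The study calls the samples of a group biological triplicates, whereas the labels give no animal identifiers.

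Tripeptidyl peptidase 1 is a lysosomal protease that removes tripeptides from the N-terminus of proteins, and its loss causes storage of undegraded material and late infantile neuronal ceroid lipofuscinosis. The choroid plexus is the epithelium in the brain ventricles that makes cerebrospinal fluid, and ciliated ependymal cells line the same ventricles. The amount of choroid plexus, ependyma, brainstem or hypothalamus in a sample depends on how the tissue was cut. In bulk RNA, more cells of a type and more RNA per cell of that type cannot be told apart.

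Between 10609896 and 21890532 reads were counted on genes in the 6 libraries, with the lowest total in T3 and the next lowest, 15968578, in T2. No libraries agreed within sampling noise. Levels are given as CPM (reads scaled to a common library size by the TMM method), fold changes are Tpp1-/- over control on the log2 scale with their standard error (SE), and p-values are those of edgeR's quasi-likelihood test adjusted over all 17229 genes tested (Benjamini-Hochberg). Differentially expressed genes (DEGs) were those with adjusted p under 0.1 that changed 1.5-fold or more. Markers matched the labelled tissue, since the mean log2 CPM of 20 cortex genes lay between 6.06 and 6.41 in the 6 F/M libraries and between 2.58 and 3.01 in Cb, while that of 15 cerebellum genes lay between 1.47 and 1.96 in F/M and between 7.64 and 7.71 in Cb.

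In F/M at 2 months, 127 genes were DEGs, 0.737% of those tested. Of these, 112 were higher in Tpp1-/- mice (0.65% of genes tested) and 15 were lower (0.0871%), so 88.2% of the DEGs were higher. The median log2 fold change over all genes tested was 0.004. Most DEGs were expressed at low levels, with a median of 3.73 CPM over the 6 libraries, against 17.59 CPM for all genes tested. The control and Tpp1-/- libraries did not overlap in 115 of the 127 DEGs (100 higher and 15 lower). Over all genes tested, 9.46% did not overlap with Tpp1-/- higher and 8.84% did not overlap with Tpp1-/- lower. At an adjusted p under 0.1 and any fold change, 2.26% of genes were higher and 0.905% were lower.

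The DEGs were sorted by marker lists and by their link to tissue content in other libraries. A gene was called linked to choroid plexus or to hindbrain when its log2 CPM followed the mean of that list with r of at least 0.7 over the 24 libraries of 1 and 3 months, with each group centred on its own mean. Beside Tpp1 itself, 4 DEGs were members of the Trim gene cluster on chromosome 7. The choroid plexus lists or link held 16 DEGs, the motile cilia list held 6, and the lists of brainstem, midbrain, cerebellum and hypothalamus or the hindbrain link held 17. A further 6 were immediate early genes and 3 belonged to another list. The remaining 74 DEGs (58.3%), 70 higher and 4 lower, were in no list and had no link.

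**Figure D1:**
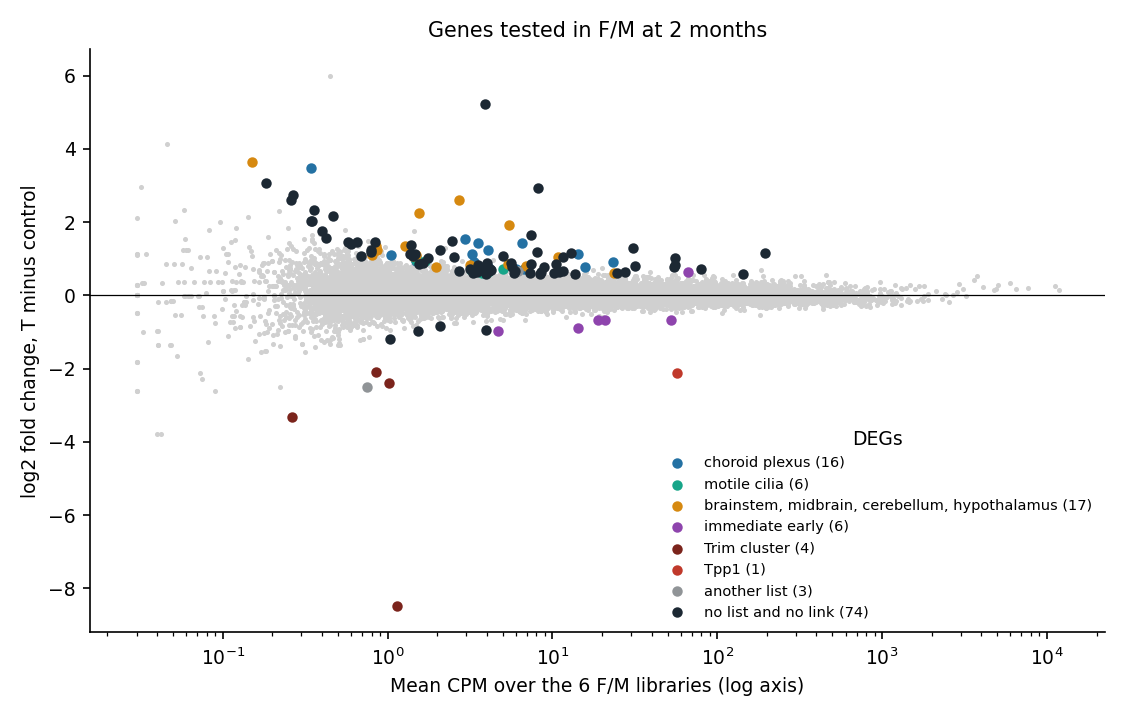
Log2 fold change of Tpp1-/- against control (y axis) by mean CPM over the 6 F/M libraries (log x axis) for the 17229 genes tested, with the 127 DEGs coloured by class and other genes in grey. The higher DEGs sit mostly at low CPM, Tpp1 stands alone among the lower genes above 50 CPM in size of change, and the lowest point is Trim12a, which had 0 reads in the Tpp1-/- libraries and therefore no usable fold change.

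Tpp1 (ENSMUSG00000030894, chr7:105744811-105752235, minus strand, GRCm38) had 94.8, 92.4 and 91.5 CPM in Co1, Co2 and Co3. It had 21.7, 21.4 and 20.9 CPM in T1, T2 and T3. The groups were far apart and each was narrow, with a log2 fold change of -2.12 (SE 0.0632, adjusted p = 1.58e-13), so reads of a disrupted gene were still counted in every Tpp1-/- library. The same gene fell by 2.06 on the log2 scale in Cb.

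Several lower DEGs lay near Tpp1. Of 88 genes tested within 5 Mb of it, 6 were DEGs (6.82%), and 5 of these, Tpp1 included, were lower. The Trim genes there encode tripartite-motif proteins, some of which act against retroviruses, and as close paralogs they may share reads. Trim12a had 2.73, 2.17 and 1.99 CPM in the controls and no read in any Tpp1-/- library, against 141 reads in the controls. With 3 counts over the group as the floor it was at least 36-fold lower. Trim30d had 1.5, 2.22 and 1.41 CPM in Co1 to Co3 and 0.249, 0.505 and 0.191 CPM in T1 to T3 (log2 fold change -2.39, SE 0.41, adjusted p = 0.0108). Trim34a had 1.32, 1.26 and 1.62 CPM against 0.299, 0.505 and 0.0956 CPM and fell by 2.09 on the log2 scale. Trim5 had under 1 CPM in every library and 0 reads in T2 and T3. All 4 were separated between the groups, and the same 4 genes were lower DEGs in Cb, where 1.8% of the genes tested were lower DEGs. In F/M at 3 months, by edgeR, Trim12a, Trim30d and Trim34a were not lower, with log2 fold changes of 0.33, 1.25 and 0.89. Of these Trim30d passed the adjusted p (0.0477) as higher. At 1 month the values were -8.11, -1.42 and -1.33. Counting of reads differed between the ages. DESeq2 gave unadjusted p-values of 4.7e-10 for Trim12a, 1.29e-06 for Trim30d, 1.56e-05 for Trim34a and 0.00328 for Trim5, but no adjusted p for any of the 4, so it neither kept nor lost them. In the edgeR fits without Co1, Co2 and Co3 in turn 4, 3 and 3 of them kept their call, and without T1, T2 and T3 the counts were 1, 3 and 3. Trim34b, a close paralog of Trim34a, was under the filter and not tested, with 0 reads in each control and 8, 8 and 5 reads in T1, T2 and T3 (named after its values were seen). The untested Trim6, Trim30b and Trim30c had 0 to 8 reads per library. The other 5 members tested were not DEGs, and Trim12c, at 2.63, 2.66 and 2.88 CPM against 4.23, 3.22 and 3.06 CPM, pointed the other way without passing the test (log2 fold change 0.39, adjusted p = 0.268). The higher DEG in this window was Olfml1, which encodes a secreted olfactomedin-like protein. It had 8.28, 8.06 and 7.96 CPM in controls and 18.3, 18.5 and 17.2 CPM in Tpp1-/- libraries (log2 fold change 1.15, SE 0.12, adjusted p = 9.32e-05), with no overlap.

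Among the choroid plexus genes, 14 were higher DEGs in F/M of Tpp1-/- mice and 0 were lower DEGs. Of 24 ion, water and solute transport genes of this epithelium, 4 were DEGs, all higher, and 13 were higher and 0 lower at an unadjusted p under 0.05. Of 36 secreted and other choroid plexus genes tested, 10 were higher DEGs, and 23 were higher and 0 lower at that unadjusted p. The background at that unadjusted p was 9.61% of all genes higher and 7.27% lower. The median log2 fold changes of the lists were 0.43 and 0.55, against 0.004 over all genes tested. The lists were chosen with earlier results of these data known, so their counts are not independent of those results.

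Among the transport genes, Slc4a5, a sodium bicarbonate cotransporter, had 1.5, 2.46 and 1.83 CPM in Co1, Co2 and Co3 and 6.43, 3.91 and 5.07 CPM in T1, T2 and T3. Every Tpp1-/- library lay above every control, with a log2 fold change of 1.43 (SE 0.20, adjusted p = 0.00202). The glucose transporter gene Slc2a12 had 4.75, 5.94 and 4.72 CPM against 10.7, 7.13 and 7.17 CPM, again with no overlap (log2 fold change 0.73, adjusted p = 0.0428). The water channel gene Aqp1 had 1.46, 3.72 and 1.89 CPM in the controls and 5.63, 3.09 and 4.3 CPM in the Tpp1-/- libraries, so that T2 lay below Co2 (log2 fold change 0.90, SE 0.26, adjusted p = 0.0974). Clic6, an intracellular chloride channel gene, showed the same order of libraries, at 7.85, 16.2 and 11.1 CPM against 26.6, 13.5 and 19 CPM (log2 fold change 0.77, adjusted p = 0.0825). Transthyretin (Ttr), the thyroxine carrier that marks this epithelium, had 209.6, 563 and 336 CPM in controls and 605, 471 and 559 CPM in Tpp1-/- libraries. Co2 lay above T2 and T3 and the test was not passed (log2 fold change 0.56, SE 0.21, adjusted p = 0.198). The potassium channel gene Kcnj13, at 2.68, 4.15 and 3.46 CPM against 5.48, 4.54 and 4.97 CPM, did not overlap and just missed the threshold (adjusted p = 0.104).

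Of the other choroid plexus genes, the prolactin receptor gene Prlr had 6.91, 11.3 and 8.8 CPM in Co1 to Co3 and 22.3, 16 and 20.9 CPM in T1 to T3, without overlap (log2 fold change 1.13, SE 0.16, adjusted p = 0.00202). Klotho (Kl), a co-receptor for FGF23, had 12.1, 20.5 and 16.2 CPM against 42.9, 20.3 and 28.3 CPM. T1 was the highest library and T2 fell just under Co2, with a log2 fold change of 0.93 (SE 0.21, adjusted p = 0.0405). Tmem72, a membrane protein gene, was separated at 1.6, 3.33 and 2.41 CPM against 7.57, 4.17 and 5.16 CPM (log2 fold change 1.24, adjusted p = 0.0162). Lbp, the lipopolysaccharide-binding protein gene, rose by 0.71 on the log2 scale (SE 0.16, adjusted p = 0.0404) from 3.43, 5.51 and 4.77 CPM to 7.67, 7.95 and 6.5 CPM. Cldn2, a tight junction claudin, was at 1.22, 3.04 and 1.99 CPM against 6.18, 3.09 and 4.02 CPM, so that T2 exceeded Co2 by a narrow margin (adjusted p = 0.0462). Coagulation factor V (F5), Mfrp and the BMP and Wnt antagonist Sostdc1 were DEGs with overlapping groups, and the growth factor gene Igf2 and the basement membrane collagen gene Col4a4 were DEGs without overlap. F5 ranged from 1.36 to 5.31 CPM in controls and from 5.24 to 14.8 CPM in Tpp1-/- libraries.

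Mfrp, a frizzled-related membrane protein gene, had 0.611, 2.66 and 1.31 CPM in controls and 6.33, 1.83 and 4.97 CPM in Tpp1-/- libraries (log2 fold change 1.54, SE 0.38, adjusted p = 0.0601), with T2 below Co2. It was the 1 choroid plexus list DEG, of 11 whose promoter was found, to hold TAATCC there, a word that OTX homeodomain proteins are known to bind. The word was searched on both strands of the 250 bases before the start of each gene (RefSeq). It lay in 1949 of 27025 promoters (7.21%) and in 5 of the 50 choroid plexus promoters found (10%), namely those of Abca4, Ace, Car14, Mfrp and Otx2. The Mfrp stretch, chr9:44101596-44101681 of GRCm38.p6 on the plus strand, is shown because it carries the word, in capitals as its reverse complement from base 134 to base 129 before the start.
Mfrp: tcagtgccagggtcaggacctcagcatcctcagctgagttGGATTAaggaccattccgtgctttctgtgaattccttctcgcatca
A match describes these letters only. Otx2 itself had 3.2, 5.55 and 4.87 CPM in controls and 6.18, 6.18 and 6.5 CPM in Tpp1-/- libraries, with no overlap, and did not pass the test (log2 fold change 0.47, SE 0.15, adjusted p = 0.137).

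**Figure D2:**
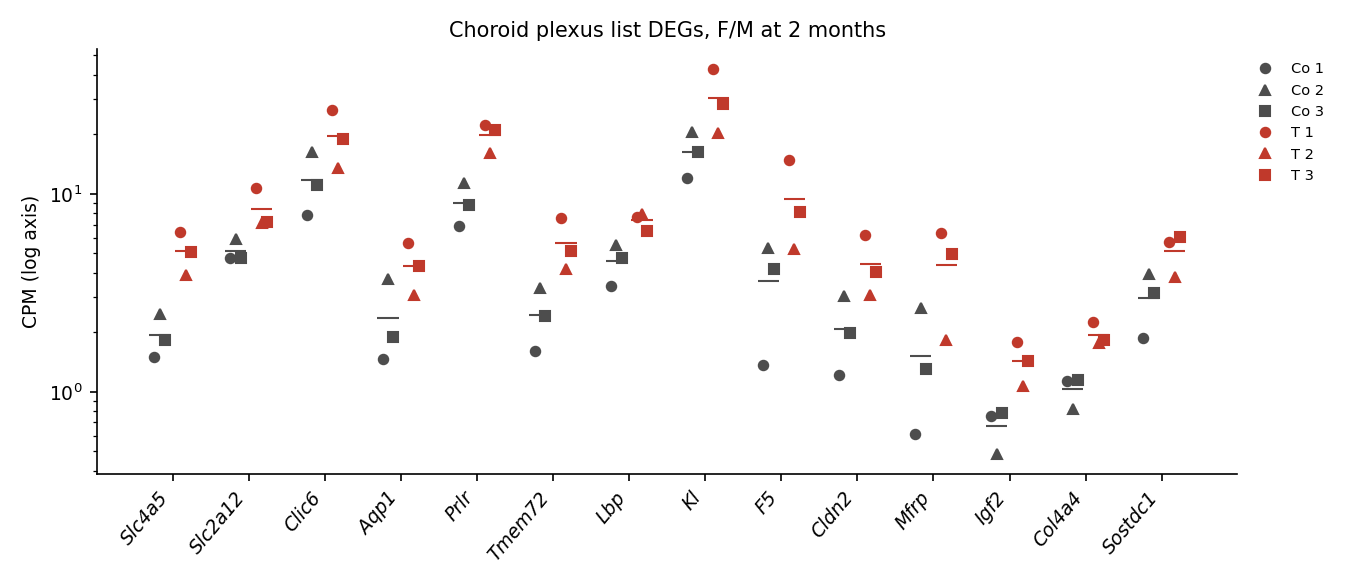
CPM (log y axis) of the 14 choroid plexus list genes that were DEGs, with each control library in grey and each Tpp1-/- library in red, replicates by marker shape and group means as bars. Co1 is the lowest control for most genes and T1 the highest Tpp1-/- library, while Co2 and T2 meet or cross in F5, Mfrp, Kl, Clic6, Sostdc1 and Aqp1.

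The order of the libraries was shared by the list. The mean log2 CPM of the 24 transport genes was 1.84, 2.53 and 2.15 in Co1, Co2 and Co3 and 2.84, 2.4 and 2.56 in T1, T2 and T3. The groups overlapped, since Co2 lay above T2. For the 36 other genes the means were 1.39, 2.16 and 1.78 against 2.57, 2.16 and 2.37, with Co2 and T2 level to the digits given. Co1 was the lowest control in 11 of the 16 choroid plexus DEGs and T1 the highest library in 12.

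Outside these libraries, 12 of the 127 DEGs followed the choroid plexus transport score over the 24 libraries of 1 and 3 months with r of at least 0.7, against 40 of all genes tested (0.23%). Over the 12 F/M libraries of those ages alone 19 DEGs and 343 of all genes tested (1.99%) had this link. The DEGs linked over the 24 libraries included Wdr72 and Rbm47, which were in neither list and are named here after their values were seen. Wdr72, a WD-repeat protein gene, had 0.047, 0.0966 and 0 CPM in controls and 0.548, 0.505 and 0.861 CPM in Tpp1-/- libraries, so its fold change rests on few reads. In Cb at 2 months the transport score was 3.04 to 3.18 in controls and 3.55 to 3.61 in Tpp1-/- libraries, without overlap, and 10 of the 16 choroid plexus DEGs were DEGs in the same direction, against 0.25% of all genes tested that were higher DEGs in Cb. The median log2 fold changes of the transport list in F/M at 1 and 3 months were 0.11 and -0.01.

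When the transport score of each library was added to the fit as a covariate, 4 of the 16 choroid plexus DEGs still passed, and their median log2 fold change moved from 1.08 to 0.44. Slc4a5 kept a log2 fold change of 0.91 (adjusted p = 0.00566) and Prlr one of 0.72 (adjusted p = 0.00509). Rbm47 and Wdr72 were the others. Clic6 went to 0.06 (adjusted p = 0.803) and Aqp1 to 0.14 (adjusted p = 0.708). Slc4a5, Aqp1 and Clic6 are members of the score, so their own levels entered the covariate. Without 1 library at a time, between 2 (without T1) and 14 (without T2) of the 14 DEGs in the choroid plexus lists kept their call, with 10 without Co1, 12 without Co2, 3 without Co3 and 5 without T3.

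Some genes of motile cilia were higher, with list scores in the Tpp1-/- libraries close to each other. Of 41 tested, 6 were DEGs, all higher, 40 had a positive log2 fold change and 25 were higher at an unadjusted p under 0.05, 8 were higher at an adjusted p under 0.1, and the median was 0.51. The mean log2 CPM of the list was 1.33, 1.46 and 1.41 in controls and 1.86, 1.87 and 1.88 in Tpp1-/- libraries. The groups did not overlap and T2 stood level with T1, whereas T2 was the lowest Tpp1-/- library in both choroid plexus lists. The DEGs were the axonemal dynein heavy chain genes Dnah3, Dnah6, Dnah7b, Dnah10 and Dnah12 and the ciliary adenylate kinase gene Ak7. Dnah6 had 3.06, 3.48 and 2.99 CPM against 5.18, 5.11 and 4.5 CPM (log2 fold change 0.65, SE 0.13, adjusted p = 0.028). Dnah10 had 2.4, 2.32 and 2.62 CPM against 4.09, 3.98 and 3.83 CPM (log2 fold change 0.70, SE 0.17, adjusted p = 0.0551). Foxj1, the transcription factor of motile ciliogenesis, had 6.07, 6.52 and 8.12 CPM in controls and 10.7, 8.39 and 11.3 CPM in Tpp1-/- libraries and passed the adjusted p at a smaller fold change (log2 fold change 0.55, adjusted p = 0.0673). All 6 DEGs were separated between the groups. With the choroid plexus score in the fit 4 of the 6 kept their call and their median log2 fold change was 0.86, against 0.71 without it. The calls were less stable to the libraries used, with 5, 2 and 0 kept without Co1, Co2 and Co3, and 0, 4 and 1 without T1, T2 and T3. In Cb the list's median log2 fold change was 0.21 and 1 member was a DEG.

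Genes of the isthmus and hindbrain showed the highest median of the regional lists. All 19 tested of 29 listed had a positive log2 fold change, 8 were higher DEGs, 15 were higher at an unadjusted p under 0.05, and the median was 0.83. The mean log2 CPM of the list was 0.24, 0.00 and 0.19 in the controls and 0.89, 0.99 and 1.02 in the Tpp1-/- libraries, without overlap. The level was low in all 6 F/M libraries against 1.78 to 2.52 in Cb. The Hox genes of the list, which mark the hindbrain behind the isthmus, had 0 or 1 read per library and were not tested.

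Slc6a5, the glycine transporter of inhibitory neurons of brainstem and spinal cord, had 0.846, 0.29 and 0.419 CPM in controls and 1.49, 4.04 and 2.2 CPM in Tpp1-/- libraries (log2 fold change 2.26, SE 0.40, adjusted p = 0.0145). The transcription factor genes En2, Irx2, Irx5, Barhl1, Tfap2b, Lhx1 and Sox14 were the other DEGs, and only Sox14 overlapped among these. En2, which marks the midbrain-hindbrain boundary, had 0.846, 1.11 and 0.891 CPM against 1.84, 2.46 and 1.82 CPM (log2 fold change 1.10, SE 0.23, adjusted p = 0.028). Irx2 had 2.3, 1.98 and 2.41 CPM against 3.59, 3.66 and 4.97 CPM (log2 fold change 0.83, SE 0.18, adjusted p = 0.0364). Ebf3, a transcription factor gene linked to the hindbrain score in the libraries of 1 and 3 months and named after its values were seen, rose from 5.97, 4.35 and 4.92 CPM to 7.87, 10.4 and 8.13 CPM (log2 fold change 0.79, adjusted p = 0.0219). Of all genes tested 33 had this link (0.19%), and 4 of the 127 DEGs did. Over the 12 F/M libraries of 1 and 3 months alone it held 782 of all genes tested (4.54%) and 10 DEGs, so its background depended on the libraries used.

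Markers of serotonin neurons were high in T2 and T3 and not in T1. Tph2, which encodes the rate-limiting enzyme of serotonin synthesis in the brain, had 3.01, 1.79 and 1.83 CPM in Co1, Co2 and Co3 and 2.89, 13.8 and 9.47 CPM in T1, T2 and T3. T1 lay below Co1, so the groups overlapped (log2 fold change 1.93, SE 0.38, adjusted p = 0.0219). The serotonin transporter gene Slc6a4 had 1.13, 0.145 and 0.943 CPM against 0.747, 8.01 and 5.26 CPM, with the same overlap (log2 fold change 2.60, SE 0.61, adjusted p = 0.0468). The noradrenaline transporter gene Slc6a2, which was no DEG and was looked at after its values were seen, was at 0 in the controls and in T1 and at 1.45 and 1.24 CPM in T2 and T3. Dbh, the noradrenaline synthesis enzyme, likewise stood at 0.299 CPM in T1 against 1.20 and 1.15 CPM in T2 and T3 and at most 0.290 CPM in controls (adjusted p = 0.57). The cell bodies of these neurons lie in the raphe and the locus coeruleus of the brainstem. The isthmus and hindbrain score of T1, at 0.89, lay above that of every control, at 0.00 to 0.24. A fit with T1 as the only Tpp1-/- library, chosen after seeing the data, assumes that T1 varies like the other groups. Calls lost in it are therefore not read as absence of a change in T1. The mean of the monoamine list, Th and other dopamine genes included, was 2.11, 1.87 and 2.01 against 2.42, 2.97 and 2.85, and 2 of its 17 genes were DEGs.

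Lists of neighbouring regions also had positive medians. In the midbrain and thalamus list 1 of 21 genes was a DEG (median log2 fold change 0.31), in the cerebellum list 1 of 15 (0.34) and in the hypothalamus list 3 of 17 (0.47), all higher. Zfhx3, a homeobox gene of thalamus and hypothalamus, had 21, 17.3 and 18.2 CPM against 27.1, 27.1 and 32.1 CPM (log2 fold change 0.60, SE 0.10, adjusted p = 0.0121). Irs4, an insulin receptor substrate of the hypothalamus, had 5.88, 8.06 and 7.18 CPM against 15.4, 12.8 and 15.6 CPM (log2 fold change 1.05, SE 0.16, adjusted p = 0.00683). The vasopressin gene Avp had 2.77, 3.86 and 4.66 CPM against 7.12, 4.99 and 8.7 CPM (adjusted p = 0.0617), and Sim1, a transcription factor of the paraventricular nucleus, 0.893, 0.821 and 0.996 CPM against 1.64, 1.89 and 2.3 CPM (adjusted p = 0.0651). Ppp1r17, a phosphatase inhibitor of Purkinje cells that the hypothalamus also expresses, rose by 1.36 (log2, adjusted p = 0.012) from 0.564, 0.917 and 0.629 CPM to 1.74, 1.64 and 2.2 CPM. None of these 5 genes overlapped between the groups. In the cerebellum list 12 of 15 genes had a positive log2 fold change, 7 were higher and 0 lower at an unadjusted p under 0.05, and beside the DEG Ppp1r17, Car8, Zic1 and Zic2 passed the adjusted p at fold changes that were each under 1.5. Its mean log2 CPM was 1.47 to 1.55 in controls and 1.66 to 1.96 in Tpp1-/- libraries, without overlap. Car8, a carbonic anhydrase-related protein of Purkinje cells, had 15.1, 12.2 and 12.8 CPM against 18, 16.6 and 18.1 CPM (log2 fold change 0.39, adjusted p = 0.0617), and Cbln1, a synaptic organizer of granule cells, had 18, 19.1 and 19.5 CPM against 19.7, 22.9 and 22.4 CPM (adjusted p = 0.236).

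Cortex genes had a negative median of small size. No cortex gene of 20 was a DEG, 10 were lower and 0 higher at an unadjusted p under 0.05, and 3 were lower at an adjusted p under 0.1, with a median log2 fold change of -0.22. Neurod6, a transcription factor of cortical pyramidal neurons, had 84.4, 73.4 and 81.1 CPM against 55.4, 63.5 and 60.3 CPM (log2 fold change -0.42, SE 0.071, adjusted p = 0.0108). The vesicular glutamate transporter gene Slc17a7 had 1077, 1111 and 1093 CPM against 912, 972 and 932 CPM (log2 fold change -0.22, adjusted p = 0.0888). Both were without overlap. Ctgf, a marker of the deepest cortical layer, was the other gene (log2 fold change -0.35, adjusted p = 0.0784). The striatum list had a median of 0.00 and the hippocampus list one of 0.05, with 0 DEGs in either (edgeR), 1 higher and 0 lower in the former and 2 higher and 1 lower in the latter at an unadjusted p under 0.05.

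In Cb the isthmus and hindbrain, midbrain and thalamus, and hypothalamus lists had the opposite sign, with median log2 fold changes of -0.23, -0.53 and -1.22, whereas the cerebellum list (0.11) and the cortex list (-0.10) had the same sign as in F/M. The isthmus and hindbrain score was 2.43 to 2.52 in Cb controls and 1.78 to 2.03 in Cb of Tpp1-/- mice, and 5 list genes were lower DEGs. The midbrain and thalamus score was 3.06 to 3.49 in Cb controls and 1.82 to 2.00 in Cb of Tpp1-/- mice, and 10 list genes were lower DEGs. Of all genes tested, 1.8% were lower DEGs in Cb and 0.25% higher. The difference of the effect between Cb and F/M passed the adjusted p for 12 of the 17 DEGs of this class and for 2.97% of all genes tested, though the F/M libraries that chose the DEGs entered it. Of the 10 DEGs in the isthmus, hindbrain and monoamine lists, 8, 6 and 2 kept their F/M call without Co1, Co2 and Co3 and 3, 6 and 2 without T1, T2 and T3. Of the 3 in the hypothalamus list, 3, 2 and 1 and then 1, 3 and 1 did so. The difference between Cb and F/M passed for Zfhx3, with a log2 fold change of -1.69 in Cb, and for Irs4, with -1.65 in Cb. These scores moved with genotype in both dissected pieces, in opposite directions, and how much the cut of the tissue contributed was not tested. When the hindbrain score was added to the fit as a covariate, the median SE of a log2 fold change rose from 0.107 to 0.385 and 2 genes were called, Tpp1 among them. With both scores the median SE was 0.559, 0 genes were called and Tpp1 had an adjusted p of 0.156. Because the hindbrain score did not overlap between the F/M groups, its share and that of the genotype cannot be told apart in that fit.

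**Figure D3:**
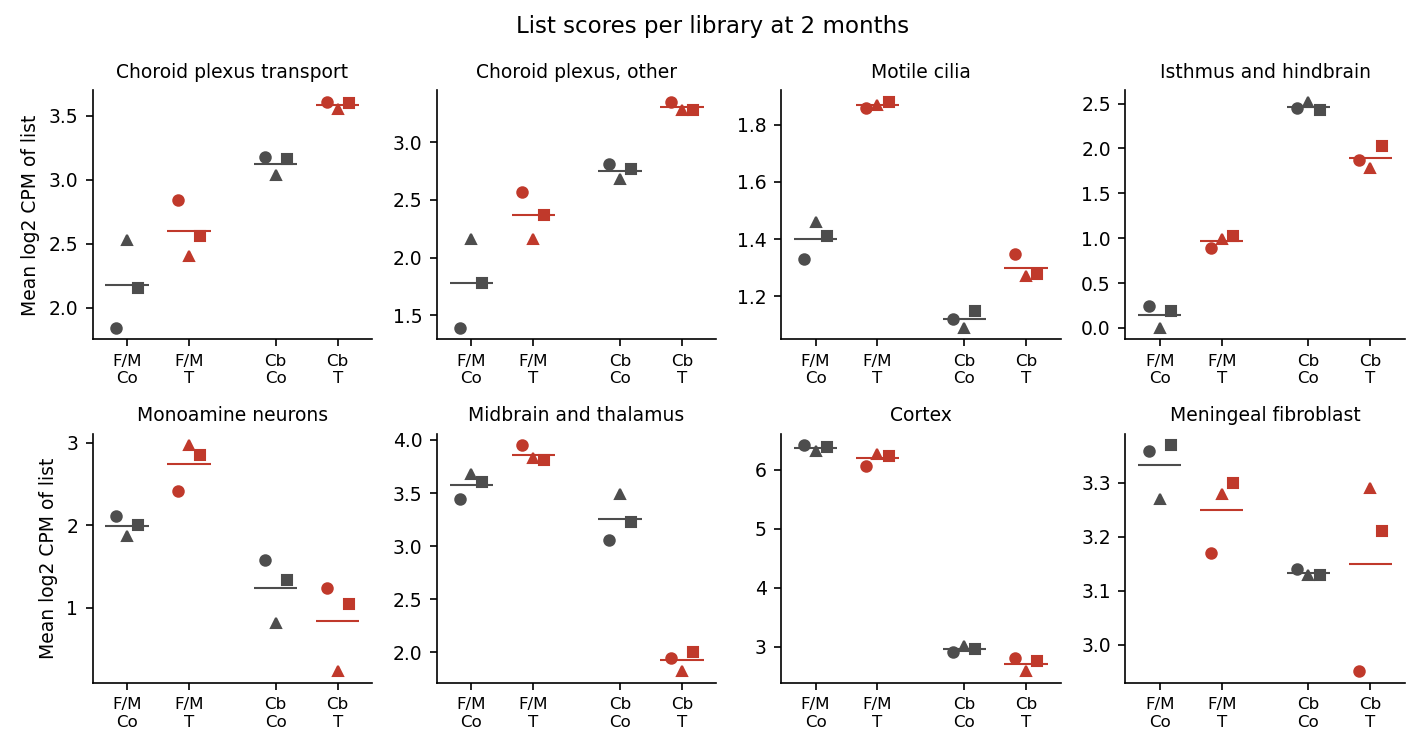
Mean log2 CPM of 8 marker lists in each 2-month library, with control (Co, grey) and Tpp1-/- (T, red) libraries of F/M and Cb, replicates by marker shape and group means as lines (each panel has its own y axis, which does not start at 0). Motile cilia and hindbrain scores are separated in F/M, the choroid plexus transport score overlaps in F/M and is separated in Cb, and the hindbrain and midbrain scores are lower in Cb of Tpp1-/- mice while higher in F/M.

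Neurons switch on immediate early genes within minutes of activity. Of 33 tested in F/M, 5 were lower DEGs and 1 was a higher DEG, 16 were lower and 2 higher at an unadjusted p under 0.05, 8 were lower at an adjusted p under 0.1, and the median log2 fold change was -0.27. Npas4, a transcription factor induced by neuronal activity, had 21.1, 16.6 and 18.2 CPM in Co1, Co2 and Co3 and 12.2, 8.71 and 8.8 CPM in T1, T2 and T3. All 3 Tpp1-/- libraries lay below all controls (log2 fold change -0.89, SE 0.18, adjusted p = 0.0268). Ptgs2, which encodes cyclooxygenase-2, had 29.2, 21.9 and 25.6 CPM against 16.6, 15.5 and 15.9 CPM (log2 fold change -0.67, SE 0.14, adjusted p = 0.0312). The nuclear receptor gene Nr4a1 had 70.2, 59.1 and 65 CPM against 40.2, 41.3 and 40.6 CPM (log2 fold change -0.67, SE 0.17, adjusted p = 0.0556). The Tpp1-/- libraries lay within a narrow range in both. Fos, the AP-1 subunit, had 26.1, 20.4 and 23.3 CPM against 13.3, 15 and 15.4 CPM (log2 fold change -0.68, adjusted p = 0.0951), and Egr2 had 8.51, 4.1 and 5.92 CPM against 2.74, 3.91 and 2.68 CPM (log2 fold change -0.98, adjusted p = 0.0556). Neither overlapped, though T2 came near Co2 in Egr2.

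Egr1, Dusp6 and Dusp1 passed the adjusted p at fold changes under 1.5. Egr1 had 236, 193 and 219 CPM against 118, 180.5 and 148 CPM (log2 fold change -0.54, adjusted p = 0.028). Dusp6, a phosphatase of ERK, had 71, 57 and 66.9 CPM against 47.7, 47.8 and 47.2 CPM (log2 fold change -0.45, adjusted p = 0.0212). Arc, at 153, 88.8 and 131 CPM against 107, 71.5 and 90.00 CPM, overlapped and did not pass (adjusted p = 0.136). Jund was the DEG that was higher, at 41.7, 48.9 and 64.5 CPM against 79.96, 72.3 and 91.1 CPM (log2 fold change 0.65, adjusted p = 0.046). It is an AP-1 subunit gene of high GC content that responds little to stimulation. The CRE palindrome TGACGTCA, known for binding CREB, lay in 478 of 27025 promoters (1.77%) and in 2 of the 26 immediate early promoters found (7.69%), those of Btg2 and Dusp1, and in 0 of the 6 DEGs. In Cb the list had a median of -0.24 and 6 lower DEGs, Npas4 (log2 fold change -1.23) and Fos (-0.89) among them, where 1.8% of all genes tested were lower DEGs. With the choroid plexus score in the fit 2 of the 6 kept their call, Npas4 and Nr4a1, and the median log2 fold change of the 6 went from -0.68 to -0.52. Ptgs2 (-0.47, adjusted p = 0.0762) and Jund (0.53, adjusted p = 0.0886) then passed the adjusted p and not the fold minimum. DESeq2 called 4 of the 6 and neither Nr4a1 (unadjusted p = 0.00707) nor Fos (unadjusted p = 0.0158). Without Co1, Co2 and Co3 in turn 4, 6 and 2 kept the edgeR call, and without T1, T2 and T3 the counts were 1, 5 and 0. The cortex score, which also was lower in every Tpp1-/- library than in every control, moved with these genes in F/M, and its part in the result was not tested.

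**Figure D4:**
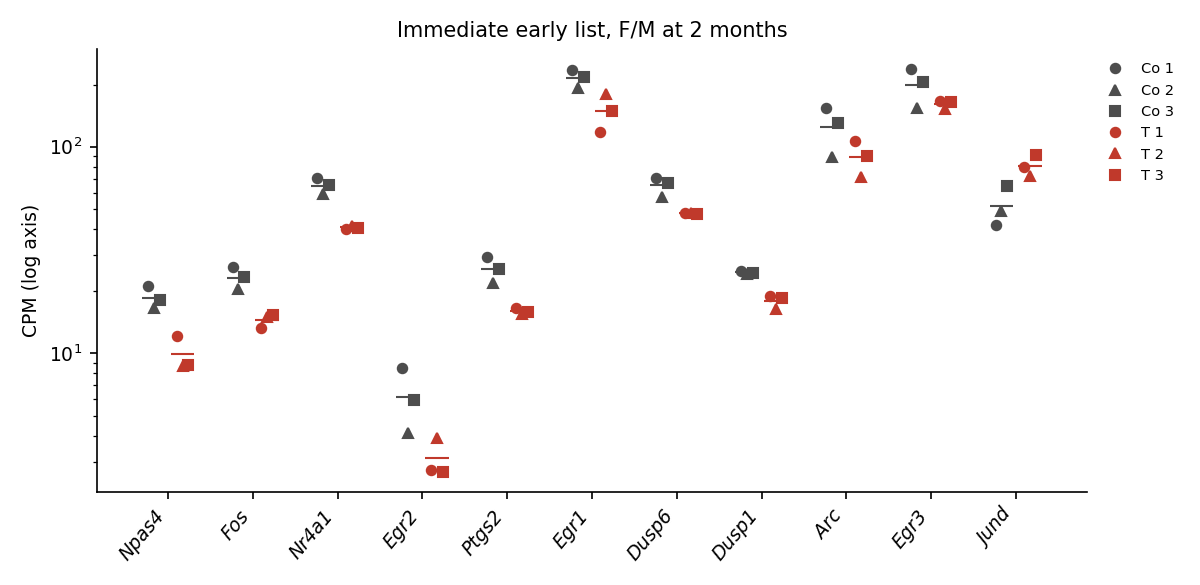
CPM (log y axis) of 11 immediate early genes in the 3 control (grey) and 3 Tpp1-/- (red) F/M libraries of 2 months, replicates by marker shape and group means as bars. Npas4, Fos, Nr4a1, Egr2, Ptgs2, Egr1, Dusp6 and Dusp1 are lower in every Tpp1-/- library, Arc and Egr3 overlap, and Jund is higher.

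No homeostatic astrocyte gene of 20 was a DEG, yet all 20 had positive log2 fold changes, 14 were higher and 0 lower at an unadjusted p under 0.05, 6 were higher at an adjusted p under 0.1, and the median was 0.25. The potassium channel gene Kcnj10 had 259.9, 223 and 244 CPM against 379.7, 331 and 341 CPM (log2 fold change 0.53, SE 0.0736, adjusted p = 0.00202). The water channel gene Aqp4 had 169.9, 139 and 153 CPM against 232, 218 and 217 CPM (log2 fold change 0.53, SE 0.083, adjusted p = 0.0076). Neither overlapped, and their adjusted p were among the smaller ones of the comparison. Gfap, the intermediate filament of reactive astrocytes, had 163, 193 and 178 CPM against 230.3, 211 and 223 CPM (log2 fold change 0.31, adjusted p = 0.0468). In Cb the homeostatic list had a median of -0.03 and Gfap a log2 fold change of 0.09. Of 15 genes of oligodendrocyte precursors 0 were DEGs, 7 were higher and 0 lower at an unadjusted p under 0.05 and 4 were higher at an adjusted p under 0.1, with a median of 0.27.

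Microglial lists held no DEG at this age by edgeR among the genes that passed the filter. In the disease-associated list Itgax, Cst7, Clec7a, Ccl3, Ccl4, Mmp12 and Ch25h were under the filter and not tested, at 0 to 12 reads per library. Of 25 homeostatic genes 4 were higher and 0 lower at an unadjusted p under 0.05 (median 0.18), and of 18 disease-associated genes 5 were higher and 0 lower (median 0.13). In the latter list Axl, a receptor for dying cells, had 50.03, 52.1 and 49.98 CPM against 65.6, 55.3 and 67.9 CPM (log2 fold change 0.31, adjusted p = 0.0468), and Apoe had 761, 927 and 881 CPM against 1149, 964 and 1182 CPM (log2 fold change 0.36, adjusted p = 0.0617), both without overlap. Astrocytes express both genes as well. Adgre1, which encodes the macrophage antigen F4/80, was a DEG outside the lists and is named after its values were seen, at 4.18, 5.02 and 4.56 CPM against 6.33, 7.51 and 7.46 CPM (log2 fold change 0.62, adjusted p = 0.0448). The class I MHC and interferon list had a median of 0.06, with 0 of 28 genes at an unadjusted p under 0.05 in either direction.

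The lysosomal genes other than Tpp1 stayed near the level of all genes. Of 46 listed 0 were DEGs, 8 were higher and 0 lower at an unadjusted p under 0.05, and the median was 0.05. Of the 13 genes of neuronal ceroid lipofuscinoses only Tpp1 was a DEG, and Ctsd, the gene of the protease cathepsin D, had 145, 203 and 157 CPM against 192, 176 and 184 CPM (log2 fold change 0.13, adjusted p = 0.507). Subunits of the V-ATPase, the proton pump that acidifies lysosomes and synaptic vesicles, were all negative: 17 of 17, 11 of them lower at an unadjusted p under 0.05, 2 at an adjusted p under 0.1 and 0 DEGs, with a median of -0.20. Atp6v1e1 had the lowest log2 fold change of the list, at -0.25 (adjusted p = 0.0825). Meningeal fibroblast genes had a median of -0.09, with 0 DEGs of 26 and 0 higher and 3 lower at an unadjusted p under 0.05.

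Of the 74 DEGs in no list and with no link, 72 were separated between the groups. Gm15446, a predicted gene, had 0.282, 0.241 and 0.0524 CPM in controls and 6.88, 8.14 and 7.94 CPM in Tpp1-/- libraries (log2 fold change 5.23, SE 0.30, adjusted p = 6.87e-09). It rose about as much in Cb, with a log2 fold change of 4.89, and had 0.63 and 0.48 in F/M at 1 and 3 months. Reads of such a predicted gene may be shared with near-identical copies. Peg10, an imprinted gene derived from a retrotransposon, had 62.9, 56.6 and 59.9 CPM against 104, 94.7 and 99.7 CPM (log2 fold change 0.73, SE 0.0822, adjusted p = 0.00017), and Vwa5b1 had 9.26, 8.4 and 8.33 CPM against 13.9, 13.5 and 12.8 CPM (log2 fold change 0.63, SE 0.10, adjusted p = 0.00785). Both were tight within groups, and both had a log2 fold change near 0 in Cb (0.04 and 0.02), where the difference of the effect from F/M passed the adjusted p. Peg10 followed the hindbrain score with r of 0.752 over the 12 F/M libraries of 1 and 3 months and of 0.539 over all 24. The hindbrain link over the 12 held 4.54% of all genes tested.

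Several higher DEGs shared the library with the lowest and that with the highest level. Pcsk1n, which encodes the neuropeptide precursor proSAAS, had 85.8, 111 and 164 CPM in Co1, Co2 and Co3 and 273, 213 and 323 CPM in T1, T2 and T3 (log2 fold change 1.16, SE 0.20, adjusted p = 0.0108). Scand1, which encodes a SCAN domain protein, had 2.21, 3.09 and 5.24 CPM against 8.87, 10.2 and 14.9 CPM (log2 fold change 1.66, SE 0.31, adjusted p = 0.0175). Ccdc85b had 11.8, 14.8 and 27.2 CPM against 44.3, 36.5 and 50.3 CPM (log2 fold change 1.28, adjusted p = 0.0243). In these genes Co1 was the lowest library and T3 the highest, as in Jund. The GC content of Scand1 and Jund was 68.4% and 67.2%, and that of Pcsk1n and Ccdc85b 57.3% and 54.8%. Of the 93 higher DEGs linked to neither score 15 had a GC content over 60% (16.1%), against 4.2% of all genes tested. The mean log2 CPM of genes over 60% GC minus that of genes under 40% GC was -0.280, -0.021 and -0.103 in Co1, Co2 and Co3 and -0.016, -0.210 and -0.005 in T1, T2 and T3, so this measure moved with these genes between Co1 and T1 or T3, while Co2 lay near T1 and T2 near Co1. Its part in the result was not tested. In F/M of 1 and 3 months these genes had negative values, with log2 fold changes of -0.57 and -1.03 for Pcsk1n and -0.67 and -1.55 for Scand1.

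Another group was lowest in Co2, named after the values were seen. The kinase gene Hipk2 had 54.1, 19.4 and 37.5 CPM against 83.2, 68.2 and 71.8 CPM (log2 fold change 1.01, SE 0.22, adjusted p = 0.0404). The cation channel gene Trpm3 had 51, 28.9 and 41.3 CPM against 76.6, 61.7 and 67.3 CPM (log2 fold change 0.77, adjusted p = 0.0167), and the transcription factor gene Zbtb20 had 149, 79.5 and 116 CPM against 189.9, 162 and 167 CPM (log2 fold change 0.59, adjusted p = 0.0645). The Tpp1-/- libraries were close to each other in these genes and the controls were spread. Over the 12 F/M libraries of 1 and 3 months alone, Trpm3 and Hipk2 followed the choroid plexus transport score, with r of 0.877 and 0.745. Over all 24 libraries r was 0.006 and 0.042. The link over the 12 held 1.99% of all genes tested. Among the 70 higher DEGs in no list and with no link, the lowest control was Co1 in 26, Co2 in 29 and Co3 in 15. Slc5a7, the choline transporter of cholinergic neurons, was also among them, at 8.09, 9.75 and 9.22 CPM against 16, 14.1 and 12.5 CPM (log2 fold change 0.67, adjusted p = 0.0629), and in Cb it fell by 1.44 on the log2 scale.

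The lower DEGs outside the lists were E230020A03Rik, 9330179D12Rik, Ly6g6e and Asgr1, with log2 fold changes between -1.20 and -0.84 and no overlap. In other lists the growth hormone gene Gh, a product of the pituitary, had 0.941, 1.3 and 1.57 CPM against 0.299, 0 and 0.383 CPM (log2 fold change -2.52, SE 0.47, adjusted p = 0.0175). The hormone gene Prl was not tested at 0 to 6 reads per library. The topoisomerase gene Top2a of dividing cells was higher without overlap at 2.92, 2.75 and 2.83 CPM against 5.58, 4.17 and 4.21 CPM (adjusted p = 0.0723), whereas 1 of 21 cell cycle genes was a DEG and the median was -0.06. Sox18, an endothelial transcription factor gene, was at 3.71, 5.12 and 5.45 CPM against 8.97, 5.11 and 8.51 CPM and overlapped (adjusted p = 0.099). The endothelial list had a median of 0.18 and no other DEG.

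Once the choroid plexus score entered the fit, 89 of the 127 DEGs kept their call and 496 genes were called, 407 higher and 89 lower. The classes differed in what they kept: 15 of 17 in the regional class, 4 of 4 in the Trim cluster, 58 of 74 in no list and with no link, and 4 of 16 in the choroid plexus class. That last class was chosen by its lists or by its link to this same score, so much of its loss was fixed in advance. The regional DEGs had a median log2 fold change of 1.20 with the score and 1.10 without it.

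**Figure D5:**
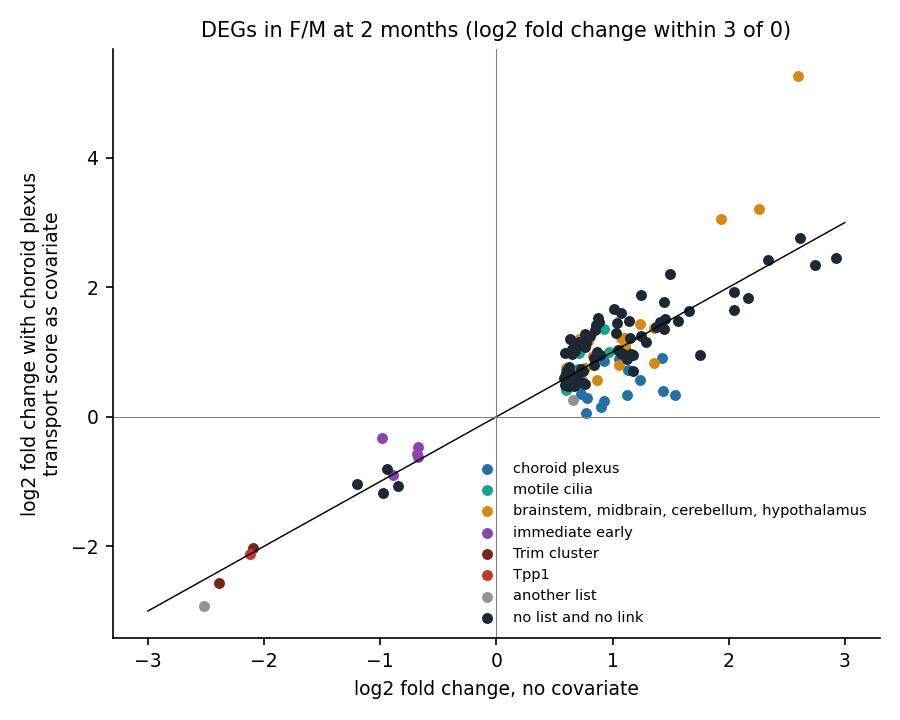
Log2 fold change of the DEGs without a covariate (x axis) and with the choroid plexus transport score of each library as a covariate (y axis), coloured by class, with the line of equality. The 121 DEGs within 3 of 0 on the x axis are drawn and 6 are not (5430419D17Rik, Evx2, Gm15446, Trim12a, Trim5 and Wdr72), and most choroid plexus genes fall below the line while Tph2, Slc6a5 and Slc6a4 lie well above it.

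The number of DEGs depended on the libraries in the fit. With the 6 F/M libraries fitted alone it was 38, of which 37 were shared, and the calls kept were 2 of 14 in the choroid plexus lists, 0 of 6 in the motile cilia list, 1 of 10 in the isthmus, hindbrain and monoamine lists, 1 of 3 in the hypothalamus list, 5 of 6 in the immediate early list and 3 of 4 in the Trim cluster. It was 352 without Co1, 129 without Co2, 36 without Co3, 20 without T1, 191 without T2 and 30 without T3. Only 14 DEGs were called in all 6 of these fits: Tpp1, Trim12a, Gh, Gm15446, Olfml1, Peg10, Vwa5b1, Pcsk1n, Slc4a5, Prlr, Slc6a5, Ebf3, Irs4 and Ppp1r17. At most 2 of the 6 fits called 54 of the DEGs.

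The effect differed between Cb and F/M for 48 of the 127 DEGs and for 2.97% of all genes tested, but the F/M libraries that chose the DEGs also entered this test. Of the DEGs, 21 were DEGs in Cb in the same direction and 6 in the opposite direction, where 0.25% of all genes tested were higher and 1.8% lower DEGs in Cb. Those in the same direction were mostly the Trim genes, Tpp1 and 10 choroid plexus genes. Between ages, the F/M effect at 3 months differed from that at 2 months for 72 of 18322 genes (0.393%), 14 of them DEGs at 2 months, and the effect at 2 months differed from that at 1 month for 4 genes (0.0218%), 2 of them DEGs, Ppp1r17 and Gm23935. Tpp1 itself fell by 1.34 on the log2 scale at 3 months, against 2.12 at 2 months. Counting used strand setting 2 at 2 months and 1 at the other ages, with other gene annotations, so age and counting cannot be told apart in these differences.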

How the data were processed

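RNA was extracted from forebrain/midbrain (F/M) and cerebellum (Cb), and stranded mRNA libraries were sequenced as single-end reads. The deposited values are raw read counts per gene, which the authors obtained with featureCounts after STAR 2.5.2b alignment (version per the submitters' processing notes) and did not normalize. Per the file headers, the 2-month counts used featureCounts 1.6.2, GENCODE M16 on GRCm38.p5 and strand setting 2, while those of 1 and 3 months used setting 1 and other GENCODE versions. Total counts of the 6 F/M libraries were 10609896 to 21890532, and depth limits mainly genes under 1 CPM. Intervals and floors cover counting error only.

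Groups were taken from the labels. The 12 libraries of 2 months (4 groups) were fitted together with edgeR 4.0.16 in R 4.3.3 (filterByExpr, TMM factors, two-sided quasi-likelihood F test), and Tpp1-/- was contrasted with control in F/M, in Cb and between the regions. A fit of all 36 libraries in 12 groups gave the differences between ages over 18322 genes. Adjustment over genes was by Benjamini-Hochberg, and DEGs were genes under an adjusted p of 0.1 that changed 1.5-fold or more. Differences between regions or ages had no fold-change minimum. With 3 against 3 libraries an exact permutation test cannot go below p = 0.1, so none was used. List scores are means of log2 CPM with a prior count of 2. The 39 gene lists (797 genes) were written from general knowledge. The lists, the members and the tests were chosen with earlier results of these data known.

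The text names Tpp1, the 10 higher and 10 lower DEGs of largest change without overlap and with a mean of at least 1 CPM, the 10 unlinked DEGs of smallest adjusted p, every listed DEG and up to 4 of the highest members of each list, with exceptions marked. Promoter words came from RefSeq promoters of GRCm38.p6. Alternatives were DESeq2 1.42.0, limma-voom (limma 3.58.1), the agreement of these with edgeR, glmTreat, RLE factors, library totals, other filters and thresholds, the 6 libraries alone, a replicate block, list scores as covariates and leaving out each library. The fit was tested on simulated counts. Tables were made with Python 3.11.15.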

Additional observations from a re-analysis of the deposited data

Results flagged for a closer look

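In groups of 3 libraries no library was tested as an outlier. The effect of Tpp1 loss differed between Cb and F/M at 2 months, by the test of the difference itself (edgeR, adjusted p under 0.1), for 22 of the DEGs named in the text. The difference, Cb minus F/M on the log2 scale, was negative for most. Among genes of brainstem, midbrain and hypothalamus it was -3.74 for Sox14, -2.70 for Irs4, -2.60 for Tph2, -2.29 for Zfhx3, -1.97 for Slc6a5, -1.48 for Irx5, -1.47 for Barhl1, -1.33 for Irx2, -1.20 for Ppp1r17 and -1.18 for En2. It was -2.07 for Scand1, -1.69 for Ccdc85b, -1.65 for Pcsk1n and -0.89 for Jund. A value of -4.13 was found for Gm44846, with -2.28 for Cngb1, -1.12 for Gm38104, -0.69 for Peg10 and -0.61 for Vwa5b1. The difference was positive for genes that were lower in F/M, at 2.13 for Gh, 1.46 for Ly6g6e and 1.34 for Asgr1.

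The F/M effect at 3 months differed from that at 2 months for 12 named DEGs in the fit of all 36 libraries. The difference, 3 minus 2 months, was 8.92 for Trim12a, which had no read in the Tpp1-/- libraries of 2 months so that this value has no usable size, 3.64 for Trim30d, 3.00 for Trim34a and 0.79 for Tpp1. It was negative at -3.21 for Scand1, -2.21 for Ccdc85b, -2.19 for Pcsk1n and -1.48 for Jund, and also for Gm23935 at -3.53, En2 at -2.04, Olfml1 at -0.95 and Zfhx3 at -0.88. Between 2 and 1 months, the difference was 3.78 for Gm23935 and 2.00 for Ppp1r17. Library strand setting and annotation differed between the ages, and their part in these differences was not tested.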

How the results depend on the processing

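The 127 DEGs (112 higher, 15 lower) became 91 with DESeq2 (9 lower), which gave no adjusted p for 39 of the 127 and lost 10 of the other 88, 71 by agreement of 3 tools (66 and 5), 4 with glmTreat (2 and 2), 222 without a filter (190 and 32), 64 at an adjusted p under 0.05 (56 and 8), 546 without a fold minimum (390 and 156), 61 at 2-fold (54 and 7) and 38 with the 6 F/M libraries alone (28 higher). They were 496 (407 and 89) with the choroid plexus score, 2 (0 and 2) with the hindbrain score and 0 (0 and 0) with both. Lower DEGs were 23 with the meningeal score. A pair of alternatives was chosen after seeing the data: lower DEGs were 43 with the monoamine score and 33 without T2 and T3, and 59 and 37 of the 127 DEGs stayed called. Leaving out 1 library gave 20 to 352 DEGs (15 to 301 higher, 5 to 51 lower), 328 to 832 region differences, 24 to 101 differences of 3 from 2 months and 0 to 7 of 2 from 1 month. The region differences (511) became 782 without a filter and 884 with the choroid plexus score. The differences of 3 from 2 months (72) became 130 with DESeq2, 254 without a filter and 45 with the choroid plexus score, and those of 2 from 1 month (4) became 89 with DESeq2 and 194 without a filter. Linked DEGs became 19 (choroid plexus) and 10 (hindbrain) over the 12 F/M libraries, where the links held 1.99% and 4.54% of all genes tested against 0.23% and 0.19%, and 2 hindbrain-linked ones remained at r of 0.8. The cause of these changes was not tested, except that filters, thresholds and fewer libraries change what can be called by construction.

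Same-numbered control and Tpp1-/- F/M libraries had correlations of their deviations of -0.067, -0.125 and 0.067, and those in Cb 0.238, 0.36 and -0.161. Between F/M and Cb, same-numbered libraries had -0.171, -0.066 and -0.034 in controls and 0.229, 0.302 and 0.282 in Tpp1-/- mice. Differently numbered F/M and Cb libraries had -0.164 to 0.189 in controls and -0.256 to 0.032 in Tpp1-/- mice, there below every same-numbered pair. The labels name no animal, and not every same-numbered pair was above 0.1, so the numbers were not taken to pair samples in the main fit. Whether same-numbered libraries share an animal was not tested. A replicate block gave 124 DEGs, 107 of them shared, 478 region differences, 61 differences of 3 from 2 months and 1 of 2 from 1 month. It kept 8 of the 14 DEGs in the choroid plexus lists and 4 of the 6 in the motile cilia list. Kept too were 8 of 10 in the isthmus, hindbrain and monoamine lists, 3 of 3 in the hypothalamus list, 6 of 6 immediate early and 4 of 4 Trim DEGs. A replicate block across F/M and Cb within genotype, added after seeing the data, gave 498 region differences, 436 of them shared, and 40 of the DEGs differed.

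Among 3773 values of named genes outside the fits with the hindbrain score, 3417 kept their side of the threshold, 334 lost the call, 21 gained it and 1 changed sign (Slc6a4, -0.076 with the monoamine score). With the hindbrain score, log2 fold changes turned for Slc6a4 (-7.862), Tph2 (-1.773), Gm44846 (-1.678), Scand1 (-0.448), Zfhx3 (-0.178), Sim1 (-0.015), Gm23935 (-0.014), Irx2 (-0.005), Barhl1 (-0.003) and 9330179D12Rik (0.42). With both scores they turned for Avp (-7.633), Gm23935 (-5.014), Sox14 (-2.337), Scand1 (-2.265), Cngb1 (-2.262), Pcsk1n (-1.58), Sim1 (-1.522), Irs4 (-1.466), Sox18 (-1.462), Ccdc85b (-1.213), Jund (-1.146), Dnah3 (-0.263), Dnah10 (-0.19), Irx2 (-0.164), Kl (-0.151), Egr2 (0.539), 9330179D12Rik (0.244) and Asgr1 (0.057). None of these reversals was a call, since the median SE in those fits was 0.385 and 0.559.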

Other observations

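Outside the groups described above, most lists were close to the median of all genes tested in F/M at 2 months. Genes of the vessel wall, of myelin and of blood had median log2 fold changes of 0.07 (mural cells, 0 DEGs of 14), 0.06 (myelin, 0 of 20) and -0.03 (blood, 0 of 6). The pericyte gene Rgs5 was higher at an adjusted p of 0.0651 and a log2 fold change of 0.35. Among neuronal lists, interneurons had a median of 0.05 (0 of 21 DEGs) and the olfactory bulb one of -0.01 (0 of 10). Circadian genes had a median of -0.02 (0 of 19), glucocorticoid and stress genes 0.11 (0 of 16), chaperones -0.06 (0 of 22) and sterol synthesis genes 0.05 (0 of 23). Class II MHC and border macrophage genes had a median of -0.04, and the mannose receptor gene Mrc1 of border macrophages was higher at an adjusted p of 0.0763 and a log2 fold change of 0.43. Reactive astrocyte genes had a median of 0.14, with Ptgs2 as the DEG among 30. At an unadjusted p under 0.05 in edgeR, the lists of this paragraph with 0 DEGs held between 0 and 5 higher and between 0 and 3 lower genes each.

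The ATP synthase list and the tested genes of the mitochondrial genome had medians of opposite sign. The listed mt-Nd3, mt-Nd4l, mt-Co2, mt-Co3, mt-Atp6 and mt-Atp8 had 0 to 4 reads per library and were not tested. ATP synthase subunits had a median of -0.10 (15 genes, 3 lower and 0 higher at an unadjusted p under 0.05, 0 DEGs), and the 7 mitochondrially encoded genes tested had a median of 0.21 (4 higher and 0 lower, 0 DEGs by edgeR). Their mean log2 CPM was 11.99, 11.99 and 12.01 in Co1 to Co3 and 12.41, 11.97 and 12.19 in T1 to T3, so that the groups overlapped through T2. Aanat was the pineal gene tested and did not pass (log2 fold change 0.28, adjusted p = 0.711), and of 12 pituitary genes 3 were tested.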
